A study of Homo sapiens with 2 samples.

Results

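The transcripts described are the long noncoding RNAs that were well detected in A375 cells with a control siRNA and with an siRNA against THOC2. They were taken as the non-control probes whose gene name begins with lnc- or XLOC_ and whose signal the scanner software called well above background, with no outlier flag, on both arrays. They were thus selected on the measured signal of both arrays. This left 1585 probes for 1464 transcript names, out of 11965 lnc- and XLOC_ probes (9710 names) and 58199 non-control probes in all. A375 is an established human melanoma cell line. RNA was measured from 1 culture transfected with si-THOC2 and 1 culture transfected with the control siRNA (NC), 48 h after transfection, on 1 array each of a 1-colour Agilent design with probes of 60 bases. There was no replicate, so no test between the conditions was possible and every difference given is one between 2 arrays. The source field of each sample contradicts its title and description, which agree, and the latter pair set the groups. The methods list several THOC2 siRNAs without naming the one on the array. Both THOC2 probes were lower on the array assigned to si-THOC2, from 136 to 40.9 and from 67.3 to 35.1 in signal, log2 fold changes of -1.42 and -0.63. Of the melanocyte lineage markers, the transcription factor gene SOX10 had signals of 6196 and 5196 and MITF of 274 and 214.6 (NC and si-THOC2), while the pigment genes PMEL and TYR were not well above background on either array. The pigment gene DCT was dim but well above background on both (18.02 and 24.4), and MLANA was so on the si-THOC2 array only, at 18.7. AXL, a receptor gene of undifferentiated melanoma, had signals of 23189 and 16034.

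THOC2 is the large scaffold subunit of the THO complex, which joins nascent RNA during transcription and, within the TREX complex, hands spliced mRNA to the export machinery. Long noncoding RNAs are made by the same polymerase as mRNAs and are often spliced and polyadenylated, but many stay in the nucleus and most are present in few copies per cell. The names come from catalogs. In a lnc- name from LNCipedia, the middle part is the symbol of a protein-coding gene near the transcript, and it says nothing of function. The XLOC_ names are loci of the Broad Institute lincRNA catalog, assembled from RNA-seq reads. No role is stated here for any of the individual transcripts named.

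The probe sequences that carry the values are printed as deposited, with their place on hg19. The first set are probes among the largest decreases with si-THOC2, shown because a reader can match them to a transcript. They lie at chrX:48239554-48239613 (minus strand), chr9:131860266-131860325 (plus), chr13:112837189-112837248 (minus) and chr15:39784868-39784927 (plus), in the order printed. Capitals, here and in the next sets, mark any AATAAA, the core signal for polyadenylation, and any CCGCC or GGCGG, which are the same GC-rich motif on either strand. This set holds none.
XLOC_l2_015722: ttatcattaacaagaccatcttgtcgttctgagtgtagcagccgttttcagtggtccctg
lnc-DOLPP1-1: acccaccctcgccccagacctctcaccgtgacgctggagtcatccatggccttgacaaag
lnc-TUBGCP3-6: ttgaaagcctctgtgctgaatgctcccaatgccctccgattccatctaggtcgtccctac
lnc-THBS1-1: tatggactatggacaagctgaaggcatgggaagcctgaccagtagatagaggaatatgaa

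The next set are probes among the largest increases, at chr1:47645313-47645573 (plus strand, across an exon junction), chr1:211756374-211756433 (minus), chr10:75868538-75868597 (minus) and chr13:44974201-44974260 (minus). None of these holds a marked motif.
lnc-CYP4A22-2: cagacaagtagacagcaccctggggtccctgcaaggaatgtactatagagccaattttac
lnc-SLC30A1-1: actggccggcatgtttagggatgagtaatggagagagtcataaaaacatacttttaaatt
lnc-AP3M1-1: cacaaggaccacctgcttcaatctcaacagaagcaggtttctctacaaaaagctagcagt
lnc-TSC22D1-1: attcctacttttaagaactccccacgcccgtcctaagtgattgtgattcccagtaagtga

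The last set are 6 of the 10 brightest probes and lnc-C9orf103-1, whose probe lies in a promoter window, at chr4:183066065-183066124 (plus strand), chr16:76268918-76268977 (minus), chr20:278214-278273 (minus), chrX:30649021-30649080 (plus), chr7:100034074-100034133 (plus), chr9:86322566-86322625 (plus) and chr12:17144740-17144925 (plus). In the last of them, XLOC_l2_002910, the capitals instead mark the run of 31 bases that it shares with a probe of EEF1A1.
lnc-WWC2-1: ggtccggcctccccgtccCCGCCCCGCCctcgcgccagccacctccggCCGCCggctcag
XLOC_l2_005557: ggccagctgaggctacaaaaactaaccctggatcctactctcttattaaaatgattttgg
lnc-C20orf96-1: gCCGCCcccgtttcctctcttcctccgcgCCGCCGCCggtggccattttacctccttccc
XLOC_l2_015478: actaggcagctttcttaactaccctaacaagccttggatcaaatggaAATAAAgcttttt
lnc-MEPCE-1: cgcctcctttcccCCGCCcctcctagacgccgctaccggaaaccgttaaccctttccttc
lnc-C9orf103-1: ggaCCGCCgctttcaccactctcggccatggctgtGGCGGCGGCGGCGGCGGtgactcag
XLOC_l2_002910: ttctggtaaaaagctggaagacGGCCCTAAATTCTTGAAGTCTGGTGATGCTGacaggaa

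Most lnc- and XLOC_ transcripts gave no signal well above background in these cells. Of 10719 lnc- probes, 1381 (12.9%) were well detected on both arrays, as were 203 of 1244 XLOC_l2_ probes (16.3%) and 1 of the 2 other XLOC_ probes. By comparison, 20622 of 46234 probes of all other kinds (44.6%) were. A further 502 lnc- and XLOC_ probes were well above background with NC only and 185 with si-THOC2 only, and 9693 on neither array. Because these signals made the selection, the shares are a description. The log2 processed signal of the well-detected probes, averaged over both arrays, ran from 4.04 to 17.87 with a median of 5.65, against a median of 7.80 for the other probes well above background on both arrays. These are brightnesses of probes with different sequences and not amounts of RNA. The lowest signals inside the selection were those of XLOC_l2_008133 (15.0 with NC, 21.4 with si-THOC2) and lnc-PTPRD-3 (15.1 and 20.8). Just outside it, lnc-AL137145.1-6 (34.9 and 18.4) and lnc-RPS24-2 (32.1 and 17.4) were well above background with NC only.

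Past a change of 2-fold, 9 of the 1585 probes were lower and 35 higher with si-THOC2. The background is the 22207 probes well above background on both arrays, of which 0.365% passed 2-fold in the lower and 0.829% in the higher direction, while of the lnc- and XLOC_ probes 0.568% were lower and 2.21% higher. The log2 fold change here is the difference of the log2 processed signals after each array was reduced by its 75th percentile over all probes, which was 6.62 for NC and 6.31 for si-THOC2. An unchanged transcript therefore reads brighter on the NC array. Both signals had to be well above background, the lowest such being 14.7 (NC) and 15.9 (si-THOC2). A lower call thus needed a brighter NC signal than the si-THOC2 signal that a higher call needed. The lowest seen were 47.4 for the lower and 24.9 for the higher probes. The lower quartile of all 1585 NC signals was 30.9. For dim probes the 2 directions were therefore not equally open, which bears on these counts, the share above 0 and the medians. The median log2 fold change was 0.08 (quartiles -0.14 and 0.29, SD 0.40 over probes), and 978 of the 1585 probes (61.7%) lay above 0. Over all 22207 probes the median was 0.04 and the SD 0.32. The lnc- probes had a median of 0.09 with 6 lower (0.43%) and 33 higher (2.39%). The XLOC_l2_ probes had a median of 0.05 with 3 lower (1.48%) and 2 higher (0.99%). Of 2 other groups of noncoding transcripts detected by the same rule, the 349 probes named LINC had a median of 0.01. Of these 0 were lower and 4 higher (1.15%). The 467 probes of antisense transcripts (names ending in -AS, with or without a number after it) had a median of -0.06, with 0 lower and 9 higher (1.93%).

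**Figure D1:**
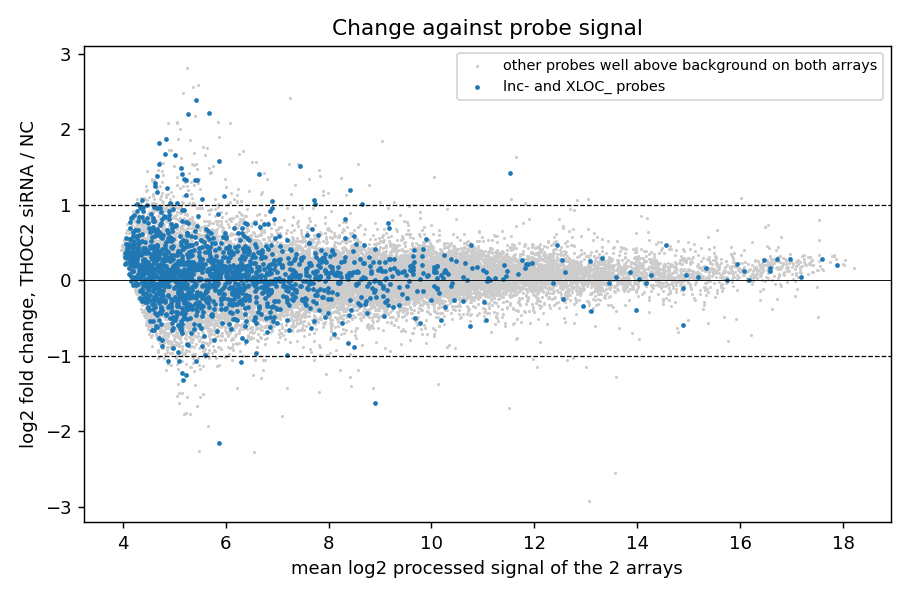
Log2 fold change (si-THOC2 over NC) of each probe against its mean log2 processed signal, for the 1585 lnc- and XLOC_ probes (blue) and the other probes well above background on both arrays (grey); dashed lines mark 2-fold. Of the 44 blue points past the lines, 34 lie at a log2 signal of 6 or less. Of all 1585 blue points, 478 lie at up to 5 and 421 between 5 and 6.

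The changes past 2-fold were mostly at dim probes. Of the 9 lower probes 7, and of the 35 higher probes 27, had a mean log2 signal of 6 or less. Dim probes also made up much of the set: of all 1585, 478 had one up to 5 and 421 one between 5 and 6. For the 478 lnc- and XLOC_ probes up to a log2 signal of 5, the median log2 fold change was 0.19, with 2.51% higher by 2-fold or more, beside 0.10 and 2.29% for the 2225 other probes of that signal. In both groups the detection limits given above leave such dim probes less room to be lower than to be higher. Between 5 and 6 the median was 0.04 for 421 probes, with 1.43% lower and 3.56% higher, beside -0.02, 1.21% and 1.73% for the other probes. Where both log2 signals were over 6 (629 probes), 1 probe was lower (0.159%) and 8 were higher (1.27%). Of all 15415 detected probes over that limit, 0.149% were lower and 0.247% higher. With another background correction (normexp), 1 lower and 5 higher probes of the 1585 passed 2-fold (0.063% and 0.32%). It adds an offset of 50 to every signal, which by itself shrinks the changes of dim probes. Of all 22207 detected probes, 0.090% were lower and 0.11% higher with it. Spots of the 300 probes that are printed more than once give the error within an array. The SD of the log2 fold change between such spots had a median of 0.17 at a log2 signal of 4 to 6 (5 probes) and of 0.05 over 8 (244 probes).

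Where a probe lay on the glass moved with its change. The array had 384 rows and 164 columns of spots. In a rectangle of rows 120 to 170 and columns 10 to 40, drawn after the values were seen, 18 of the 54 lnc- and XLOC_ probes (33.3%) were higher by 2-fold or more. The other 518 detected probes in the rectangle were of every kind, and 5.02% of them were higher by 2-fold or more, with a median log2 fold change of 0.16. Of the 1531 lnc- and XLOC_ probes outside it, 17 (1.11%) were higher, beside 0.647% of all detected probes outside it. The median processed signal of all non-control spots was 7.22 with NC and 12.8 with si-THOC2 inside the rectangle, and 9.59 and 7.83 outside it. All 9 lower probes lay outside it, as did 1531 of the 1585 probes, so few could be looked for inside. In the first 2 columns of the array, at its edge, 5 of 16 lnc- and XLOC_ probes were higher by 2-fold or more, beside 2 of 246 other detected probes. These columns too were picked after the values were seen. Without the rectangle and these columns, 12 of 1515 lnc- and XLOC_ probes (0.792%) were higher, beside 0.609% of the other detected probes. Leaving out areas rich in higher lnc- and XLOC_ probes lowers their share by construction, so no conclusion is drawn from how near the 2 shares are. What part the position played in these changes was not tested. Each higher probe named below is given with its place inside or outside the rectangle.

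**Figure D2:**
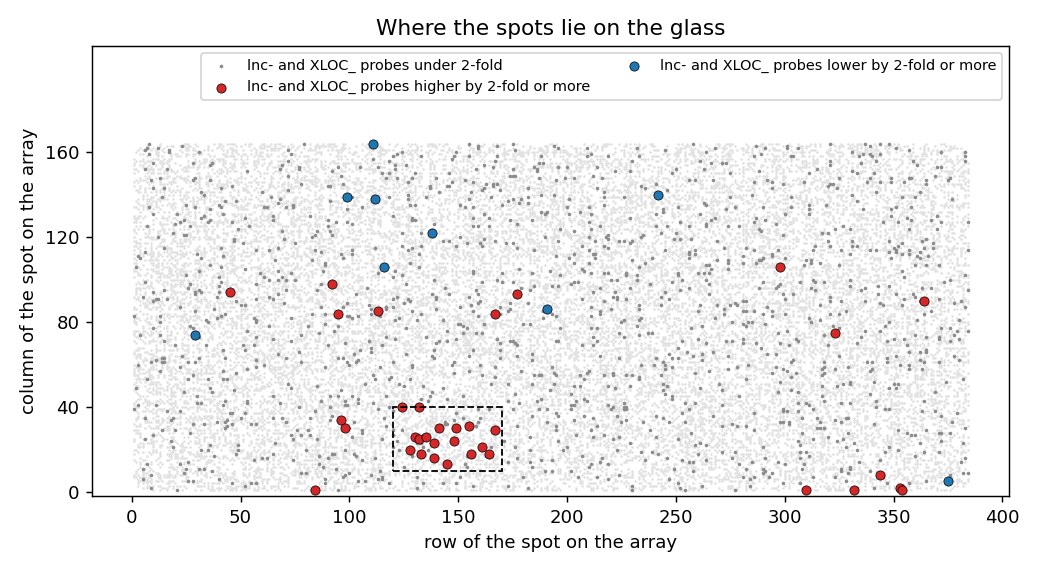
Row and column of the spot of each lnc- and XLOC_ probe on the array, red where at least 2-fold higher and blue where at least 2-fold lower with si-THOC2, dark grey where under 2-fold, over all detected probes (light grey). The dashed rectangle of rows 120 to 170 and columns 10 to 40 holds 54 of the 1585 lnc- and XLOC_ probes, with 18 of the 35 red points and none of the 9 blue ones.

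Among the lower probes, lnc-DOLPP1-1 was the brightest. Its signal went from 935 (NC) to 245 (si-THOC2), a log2 fold change of -1.62 ± 0.20, where the error after ± is that of the scanner software for the single spot on each array and leaves out the spread between cultures. Of the 51 detected probes printed within 8 rows and 4 columns of it, 1 was lower and 1 higher by 2-fold or more. It lies 3132 bases from the nearest detected coding probe, that of CRAT on the opposite strand, a carnitine acetyltransferase gene, whose log2 fold change was 0.14. The gene in its name, DOLPP1, a dolichyldiphosphatase gene, was at -0.06.

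XLOC_l2_015722 on chromosome X had the lowest log2 fold change of all, -2.15 ± 0.32, from signals of 138 and 25.03. Its spot lay among others that were also lower. Of the 51 detected probes within 8 rows and 4 columns, 7 were lower by 2-fold or more, among them DIABLO, a mitochondrial apoptosis gene (log2 fold change -2.55), SETD3 (-1.51) and ZNF621 (-1.48). Those genes lie on chromosomes 12, 14 and 3. None of the other 8 lower probes had more than 1 such neighbour.

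The other lower probes were dimmer than lnc-DOLPP1-1. lnc-TUBGCP3-6 had signals of 63.4 and 20.5 (NC and si-THOC2, log2 fold change -1.32 ± 0.31). lnc-THBS1-1 had 60.7 and 20.9 (-1.23 ± 0.31). In both of these the signal with si-THOC2 was close to the lowest signal that the scanner called well above background on that array, 15.9. XLOC_l2_008632, whose probe holds an AATAAA, went from 127 to 48.4 (-1.09 ± 0.23). XLOC_l2_003066 had 47.4 and 18.3 (-1.06 ± 0.55), lnc-MPPED2-3 had 54.8 and 21.2 (-1.06 ± 0.31), and 1 more on chromosome 7 had 69.5 and 26.8 (-1.06 ± 0.28). The si-THOC2 signals of XLOC_l2_003066 and lnc-MPPED2-3 were likewise close to 15.9. The 10th lowest, lnc-HIATL1-1, stayed just under 2-fold, at 231 and 93.6 (-0.99 ± 0.21). The 9 lower probes lie on 9 chromosomes.

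**Figure D3:**
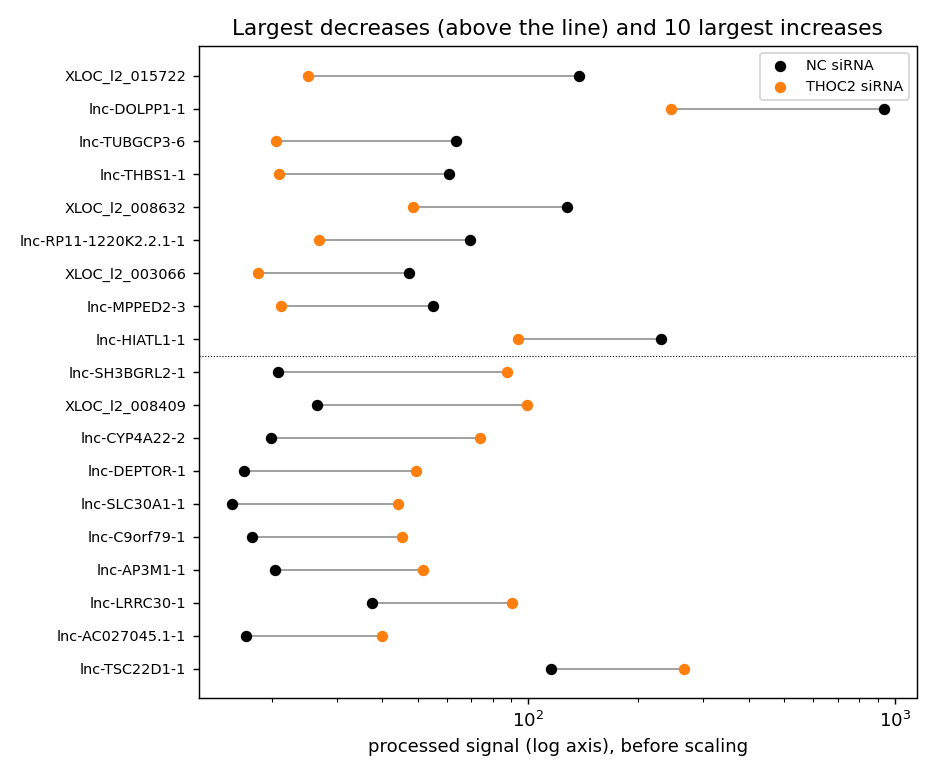
Processed signal with NC (black) and with si-THOC2 (orange), on a log axis and before scaling, of 9 of the 10 lnc- and XLOC_ probes with the largest decrease and the 10 with the largest increase, 1 array each. Of these only lnc-DOLPP1-1, lnc-HIATL1-1 and lnc-TSC22D1-1 had a signal over 200 on either array.

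Of the 10 largest increases, 6 lay outside the rectangle. lnc-CYP4A22-2 went from 19.9 (NC) to 73.9 (si-THOC2), a log2 fold change of 2.21 ± 0.30, and none of the 50 detected probes around its spot was past 2-fold. lnc-SLC30A1-1 had 15.5 and 44.0 (1.81 ± 0.43), lnc-AP3M1-1 20.3 and 51.7 (1.66 ± 0.38), lnc-LRRC30-1 37.5 and 90.4 (1.58 ± 0.25) and lnc-AC027045.1-1 17.0 and 39.8 (1.54 ± 0.63). The NC signals of these 5 lay between 15.5 and 37.5, where the lowest signal called well above background was 14.7. The spot of lnc-LRRC30-1 was in the first column of the array. Each of the other 4 had at most 2 higher probes around its spot.

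The 6th of them, lnc-DEPTOR-1 on chromosome 8, had signals of 16.8 and 49.4 (1.87 ± 0.40). It was the only called probe whose naming gene was past 2-fold in the same direction. DEPTOR, which encodes an inhibitor of the mTOR kinase, had 23.8 and 46.2 on its 1 probe (1.27 ± 0.32), 182826 bases away on the same strand. The spots of the pair were far apart on the array, at row 45, column 94 and at row 382, column 34. Both had dim signals.

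Inside the rectangle were the largest increase, lnc-SH3BGRL2-1 (20.8 and 87.6, 2.38 ± 0.30), XLOC_l2_008409 (26.6 and 99.2, 2.21 ± 0.27), lnc-C9orf79-1 (17.7 and 45.3, 1.67 ± 0.34) and lnc-TSC22D1-1 (115 and 266, 1.52 ± 0.21). It also held the brightest of all higher probes, lnc-STK35-1, with signals of 2013 and 4363 (1.43 ± 0.20), and lnc-RTL1-2 of the imprinted DLK1 and RTL1 region on chromosome 14, with 250 and 464 (1.20 ± 0.20). Of the 49 detected probes around the spot of lnc-STK35-1, 7 were higher by 2-fold or more, and around that of lnc-RTL1-2 there were 7 of 54. The second probe of lnc-RTL1-2, with 528 and 396, was at -0.10. Outside the rectangle the higher probes with a log2 signal over 6 were the 3 of lnc-LRRK1-2 (315 and 511, 1.01 ± 0.21), lnc-YIF1A-3 (68.8 and 148, 1.41 ± 0.22) and lnc-AKIRIN1-1 (92.1 and 154, 1.05 ± 0.21). Around the spot of lnc-YIF1A-3, 3 of 52 detected probes were higher by 2-fold or more. There were 0 of 50 around that of lnc-AKIRIN1-1 and 0 of 23 around that of lnc-LRRK1-2. The spot of lnc-LRRK1-2 was in the first column, where lnc-CPT2-1 (29.9 and 60.5, 1.33 ± 0.29) and lnc-GRM6-1 (18.9 and 34.2, 1.16 ± 0.49) also lay.

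The other higher probes had log2 fold changes from 1.01 to 1.49. Inside the rectangle they included lnc-FBXO15-4 (23.4 and 53.0, 1.49 ± 0.29), lnc-TPPP2-1 (24.4 and 52.1, 1.40 ± 0.29), around whose spot 9 of 55 detected probes were higher, and lnc-ZNF236-1 (162 and 272, 1.06 ± 0.21). lnc-TPPP2-1 lies 322 bases from the probe of NDRG2, on the opposite strand, which was at -0.25. Away from the rectangle and the first 2 columns were lnc-TAF13-1 (25.7 and 52.5, 1.34 ± 0.37), lnc-IL21R-1 (26.2 and 53.2, 1.33 ± 0.28), lnc-GCNT7-1 (47.6 and 83.6, 1.12 ± 0.24), lnc-GADD45A-2 (25.9 and 42.4, 1.02 ± 0.29) and lnc-IL18-1 (15.3 and 24.9, 1.01 ± 0.39). Their NC signals were under 50. The naming genes TAF13, a general transcription factor subunit, and IL21R, a cytokine receptor, were at -0.24 and 0.07.

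The brightest probes differed little between the arrays. The 10 brightest had NC signals from 73309 (lnc-MEPCE-1) to 248690 (lnc-WWC2-1) and si-THOC2 signals from 64595 to 231261. Their log2 fold changes lay between 0.00 (XLOC_l2_010508) and 0.29 (XLOC_l2_008560), with an error of 0.20 each. The brightest, lnc-WWC2-1, had a probe of 85.0% GC, and the probe of lnc-TPSAB1-1, the 6th, one of 83.3%, whereas XLOC_l2_005557, the next after lnc-WWC2-1, had 41.7%. The median over all 1585 was 45%. Among the 89 lnc- and XLOC_ probes over a log2 signal of 10, 12 held CCGCC (13.5%) and 9 held GGCGG (10.1%), against 4.29% and 3.79% of all 1585 and 2.13% and 1.69% of the other 20622 detected probes, all of 60 bases. AATAAA, read on the probe's strand only, stood in 7.26% of the lnc- and XLOC_ probes and in 7.83% of the others. These are matches of letters in a probe and not sites shown to be used. Probes over 60% GC had a median log2 fold change of 0.15 (101 probes), and those up to 35% GC of -0.02 (181 probes), beside 0.11 and -0.03 for the other detected probes.

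Some of these probes share sequence with other probes, so what they measured is uncertain. Of the 1585, 54 (3.41%) shared a run of at least 30 bases with some other probe, and 31 of these with a probe of another name. XLOC_l2_002910 on chromosome 12 had signals of 104387 and 91787 (log2 fold change 0.12). The probe of EEF1A1, the translation elongation factor gene whose run of 31 bases it carries, had 162450 and 152470 (0.22). XLOC_l2_003293 and OVOS2, with a run of 32 bases, were at -0.34 and -0.32. XLOC_l2_012371 shared 36 bases with PSMC1, a proteasome subunit gene, and they were at 0.01 and -0.41. Whether the probes of such a pair read 1 transcript or 2 cannot be told apart here.

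The probes lay on every chromosome from 1 to 22 and on X (1582 of 1585), with 780 on the plus and 805 on the minus strand. The share of lnc- and XLOC_ probes that was well detected ran from 9.19% on chromosome 6 to 19.0% on chromosome 19. The median log2 fold change was above 0 on all 23 chromosomes, from 0.00 on chromosome 13 (41 probes) to 0.25 on chromosome 20 (42 probes). The other detected probes had medians from -0.01 on chromosome 5, the only chromosome below 0, to 0.10 on chromosome 19. Their median was above that of the lnc- and XLOC_ probes on chromosomes 11, 13, 15, 16, 19 and 22. Medians above 0 were thus not particular to the lnc- and XLOC_ probes. Chromosome 18 held the most higher probes for its size, 4 of 25, and 3 of these (lnc-FBXO15-4, lnc-ZNF236-1 and lnc-MBP-1) lay in the rectangle. Of all probes, 150 (9.46%) spanned more than 60 bases on the genome, which places them across an exon junction. These had a median log2 fold change of 0.02, with 0 lower and 3 higher probes, and the 1435 others a median of 0.09. By strand the medians were 0.09 (plus) and 0.08 (minus). Whether the rest lie in exons or introns of coding genes was not analysed here.

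**Figure D4:**
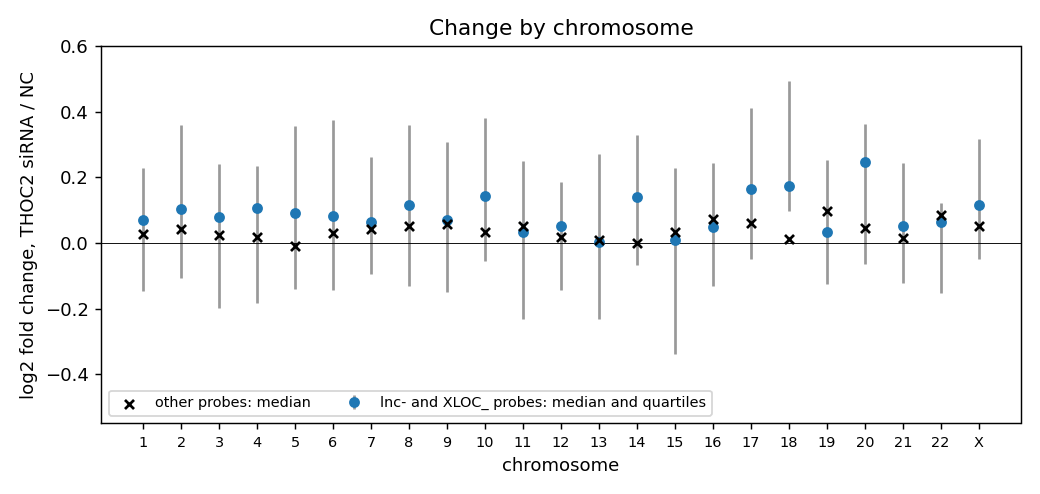
Median log2 fold change (si-THOC2 over NC) of the lnc- and XLOC_ probes on each chromosome (blue, bars from the lower to the upper quartile) and of the other detected probes (crosses). The blue medians lie between 0.00 (chromosome 13) and 0.25 (chromosome 20), and the quartile bars overlap on all chromosomes.

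When probes on a chromosome were joined into a locus wherever they lay within 50 kb, the 1585 fell into 1367 loci, of which 174 held 2 or more. The densest, on chromosome 1 from 155168350 to 155181025, held 6 probes of lnc-MTX1-1 and lnc-THBS3-1, with log2 fold changes from -0.40 to 0.38. On chromosome 5, from 90598761 to 90607514, 5 probes of lnc-ARRDC3-1 lay between -0.33 and 0.09, their NC signals running from 21.0 to 709. On chromosome 17, from 46124243 to 46137804, 5 probes of lnc-COPZ2-1 and lnc-CBX1-1 lay between -0.19 and 0.27. On chromosome 1, from 225634945 to 225660057, 4 probes of lnc-LBR-1 and lnc-AC092811.1-1 were all above 0, up to 0.88, and 1 of them lay in the rectangle. None of these 4 loci held a probe past 2-fold.

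Several probes to one transcript name are the nearest thing to a repeat in this design, although they share the culture and the array. Some also share sequence: a pair of the lnc-RASA1-3 probes have a run of 50 bases in common, a pair of the lnc-GTF2F2-2 probes 34, the dim pair of lnc-TMED5-1 54, and the 3 probes of lnc-ROBO2-4 between 50 and 52. Of 99 names with 2 or more well-detected probes, 58 had all of them on one side of 0. Of the 99, 83 had only 2 probes, and 61.7% of all 1585 probes lay above 0. Probes with no link to each other would thus often share a side. The median range within a name was 0.24 on the log2 scale, and no name had every probe past 2-fold. lnc-EPHA6-1 on chromosome 3 had 3 probes within 0.04 of each other, at 0.23, 0.24 and 0.27, from NC signals of 125, 238 and 126. The 3 probes of lnc-RASA1-3 lay between -0.44 and -0.28 and those of lnc-PRKD1-2 between -0.52 and -0.12. The 3 probes of lnc-GTF2F2-2 lay between -0.49 and -0.06. lnc-CRIPAK-1 had 0.02, 0.16 and 0.48, all from NC signals under 30. In these 5 names every probe was on the same side of 0.

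Names with probes on both sides of 0 included lnc-TUBGCP3-6, lnc-SNURF-1, lnc-TMED5-1 and XLOC_l2_013931. In lnc-SNURF-3, lnc-VAMP1-1 and lnc-ROBO2-4, also given here, all probes were below 0. lnc-TUBGCP3-6, the transcript with the third largest decrease, had 3 probes, at 0.39, -1.32 and -0.17, with signals of 50.1 and 52.9, of 63.4 and 20.5, and of 39.8 and 28.5 (NC and si-THOC2). This was the largest range of any name, 1.71. lnc-SNURF-1, in the imprinted region on chromosome 15 that holds SNURF and SNRPN, had 4 probes at -0.66, -0.69, -0.90 and 0.65. Its NC signals were 33.3, 50.5, 47.8 and 20.8, and its si-THOC2 signals were 17.0, 25.2, 20.6 and 26.4. The nearby lnc-SNURF-3 had 3 probes between -0.41 and -0.08. In lnc-VAMP1-1 probes with signals of 272 and 217 and of 31.3 and 24.9 were at -0.01 and -0.02, while the one with 57.3 and 25.7 was at -0.85. In lnc-TMED5-1 the bright probe (1300 and 1131) was at 0.11 and the pair of dim ones at -0.47 and -0.42. The 3 probes of lnc-ROBO2-4 lay between -0.84 and -0.24 and those of XLOC_l2_013931 between -0.16 and 0.07. Of the probes past 2-fold, 2 belonged to names with several probes, lnc-TUBGCP3-6 and lnc-RTL1-2, and in both the other probes were under 2-fold.

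The lnc- probes were set beside the coding genes in their names. Of the 1381 lnc- probes, 1252 carry the symbol of a protein-coding gene of the reference table, and for 915 of them that gene was well above background on both arrays (774 genes). These 774 genes had a median log2 fold change of 0.03. Over the 915 pairs, Pearson's r was 0.05 and Spearman's rho 0.05, as a description of pairs that share 2 arrays, and 51.6% of the pairs lay on the same side of 0. Of the 23 called probes with a measured naming gene, 1 had that gene past 2-fold in the same direction, the lnc-DEPTOR-1 pair above. The naming genes of the other called probes were between -0.35 (GADD45A, a DNA damage response gene, with lnc-GADD45A-2 at 1.02) and 0.39. Where the nearest detected coding probe within 50 kb was taken instead, r was 0.04 over 888 pairs.

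**Figure D5:**
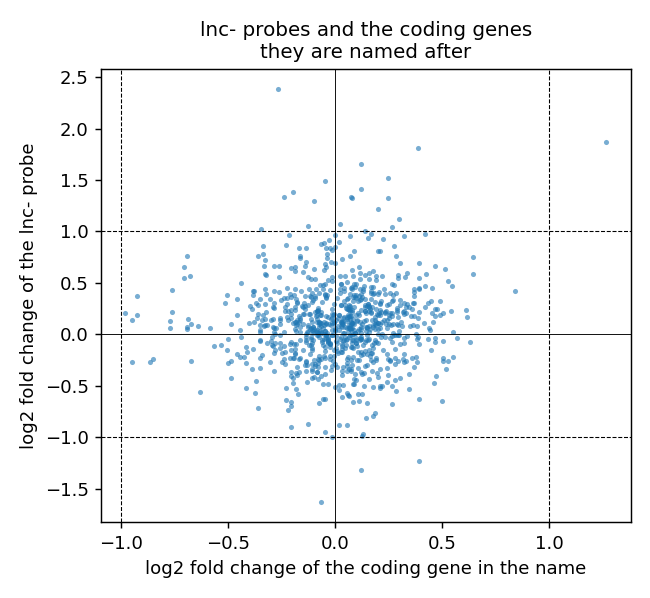
Log2 fold change (si-THOC2 over NC) of each lnc- probe against that of the coding gene in its name, for 915 pairs; dashed lines mark 2-fold. The points form a round cloud about 0 (Pearson's r 0.05), and 1 point past 2-fold for the transcript is also past 2-fold for the gene.

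Some of the probes read DNA next to the start of a coding gene. The whole probe was found in a RefSeq promoter window (250 bases before to 50 after a gene's start, GRCh38.p14, 35116 windows) for 36 of the 1585 (2.27%), against 0.621% of the 20622 other detected probes and 1.29% of the undetected lnc- and XLOC_ probes. Of the 36, 20 read against the direction of the gene, 14 along it and 2 matched both ways, and 23 lay in a window of a coding gene. lnc-MEPCE-1, printed above, runs against PPP1R35 from 13 bases before its start to 46 after it, and had signals of 73309 and 64595 (log2 fold change 0.13 ± 0.20). lnc-C17orf62-1 runs against NARF and had 15884 and 13779 (0.10 ± 0.20). lnc-C9orf103-1, in the window of UBQLN1-AS1, had 13490 and 11222 (0.04 ± 0.20). lnc-RAD1-2, against RAI14, had 2378 and 1261 (-0.61 ± 0.20). The 36 log2 fold changes lay between -0.76 and 0.68 with a median of 0.07, and none was past 2-fold.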

How the data were processed

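RNA of 1 A375 culture with si-THOC2 and 1 with NC was hybridized to 1 array each. The deposited scanner files give the intensity of each spot, which the authors obtained with Agilent Feature Extraction 10.7.1.1 (per the submitters' processing notes) as a background-subtracted processed signal with flags for outliers and for signals well above background, and with an error for each spot. Normalized log2 values of the same arrays, made by the authors and also deposited, served as an alternative. The authors' comparison table holds fold changes and their directions and was not used. No column of another sample was found (0).

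Groups followed the sample titles and descriptions. Control spots and outlier-flagged spots were left out, log2 values were averaged over a probe's spots, and each array was reduced by its 75th percentile over all 58199 probes. A probe counted as called at 2-fold or more. With 1 array per condition no test was run, and the number of arrays limits the precision. Errors are the scanner software's for single spots. The transcripts, the lists and the rule for naming (the 10 largest decreases and increases, the 10 brightest, those nearest the detection limit, names with 3 or more probes, the densest loci and the coding genes in the names) were chosen with earlier results of these data known. DEPTOR, lnc-STK35-1, lnc-RTL1-2 and the other called probes beyond the first 10, and the probes sharing sequence or lying in promoter windows, were picked after their values were seen. Positions are those of the deposited annotation (hg19), and promoter windows and coding gene symbols are RefSeq's (GRCh38.p14), matched by sequence and by name. Exons and introns were not analysed here, and 1 of the lower transcripts is counted but not reported here.

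The alternatives were quantile normalization, the median of detected probes, lowess centring (span 0.3), normexp background (offset 50), the authors' normalized values, centring by block of spots, a log2 signal over 6, 1 value per name, folds of 1.5 and 3, and dim signals at their limit. The calculation was tested on simulated data. Python 3.11.15 (numpy 2.4.6, pandas 2.3.3, scipy 1.17.1, statsmodels 0.14.6, matplotlib 3.10.9) and R 4.3.3 with limma 3.58.1 were used.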

Additional observations from a re-analysis of the deposited data

How the results depend on the processing

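No paired analysis was possible because there was 1 array per condition. The 9 lower and 35 higher probes became 1 and 5 with normexp background correction. It also moved the mean of the THOC2 probes from -1.03 to -0.51 on the log2 scale. The counts were 1 and 8 where both log2 signals had to exceed 6, 52 and 138 at 1.5-fold, and 2 and 7 at 3-fold. Shares with normexp and over that signal are given above. At 1.5-fold 3.28% of the lnc- and XLOC_ probes were lower and 8.71% higher, beside 2.94% and 3.84% of all detected probes. At 3-fold the shares were 0.126% and 0.442%, beside 0.063% and 0.153%. With dim signals placed at their limit, so that 1 array well above background was enough, the counts were 51 and 114 of 2272 probes. No share over all probes was computed for that setting. In alternatives chosen after seeing the data, the higher probes came to 17 without the rectangle of rows 120 to 170 and columns 10 to 40. They came to 12 without it and the first 2 columns, and to 14 without probes that had 2 or more higher probes around their spot. The lower probes came to 9, 9 and 8, the last without probes with 2 or more lower ones around their spot. In that last setting 0.964% were higher and 0.511% lower, beside 0.627% and 0.333% of all detected probes. Under the other 6 alternatives (quantile normalization, the median of detected probes, lowess centring, the authors' values, block centring and 1 value per name) the counts ran from 8 to 12 lower and from 26 to 34 higher. These were shares of 0.55% to 0.76% lower and 1.64% to 2.32% higher. Of all detected probes or names, 0.365% to 0.49% were lower and 0.68% to 0.90% higher. A signal limit, a fold or the leaving out of probes changes the number by construction. The normexp offset of 50, added to every signal, likewise shrinks the changes of dim probes, those of THOC2 included. The median signals of the 1585 probes were 56.2 (NC) and 47.9 (si-THOC2). What else shifted the counts was not tested.

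The median log2 fold change of the lnc- and XLOC_ probes stayed between 0.04 and 0.09 under the alternatives for which it was computed. It was above the median of all detected probes under each of those for which both were computed, which leaves out the dim signals at their limit and the 3 chosen after seeing the data. The 20 probes with the largest changes kept their direction in each of 6 scalings and background settings. With normexp, 8 of the 9 decreases and 7 of the 10 increases past 2-fold no longer passed it. The brightest 10, whose main values were within 0.29 of 0, ran from -0.13 to 0.27 over the same settings. Of these, XLOC_l2_005557, XLOC_l2_008560, lnc-C20orf96-1 and XLOC_l2_015478 were above 0 in each of them, and the other 6 changed direction in at least 1.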

Other observations

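Among the 687 lnc- and XLOC_ probes well above background on 1 array only, 42 were at least 2-fold lower with si-THOC2 and 79 at least 2-fold higher, with the dim signal set at the higher of its own value and the lowest signal called well above background on that array. The largest such decrease was a probe of lnc-MBP-1, with signals of 342 with NC and 18.5 with si-THOC2, at least 14.9-fold lower. Its spot lay 3 rows and 1 column from that of XLOC_l2_015722, in the small area where DIABLO and other probes were also lower. The other probe of lnc-MBP-1, printed elsewhere and inside the rectangle, went the other way, from 23.7 to 38.9 (log2 fold change 1.02). On the higher side lnc-GRAMD2-1 (9.59 and 97.3) was at least 8.23-fold higher, lnc-SDPR-1 (3.29 and 82.1) at least 6.94-fold and lnc-TLR2-1 (2.96 and 75.3) at least 6.37-fold.

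Dim probes were higher more often than bright ones both inside and outside the rectangle. Of its lnc- and XLOC_ probes with a log2 signal of 6 or less, 13 of 29 were higher by 2-fold or more, against 5 of 25 brighter ones. Outside it, 14 of 870 dim (1.61%) and 3 of 661 brighter lnc- and XLOC_ probes (0.454%) were higher. For the other detected probes it was 16 of 135 dim and 10 of 383 brighter ones inside it, and 88 of 5148 dim and 35 of 14956 brighter ones outside it. The median local background of the spots was 25 with NC and 23 with si-THOC2 both inside and outside it.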
